A study of Arabidopsis thaliana with 35 samples.

Results

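GIGANTEA (GI, locus AT1G22770) is a plant protein whose transcript cycles over the day, and it is described here across cotyledons, hypocotyls and roots of Arabidopsis thaliana seedlings moved to 28 °C and of seedlings left at 20 °C. GI is 1 of 13355 genes that the array's probe-to-gene annotation names through a probe set of their own, and 1 probe set reports it. It was chosen by its measured values, namely its level by organ and harvest hour and its opposite differences between 28 °C and 20 °C at the 3 h and the 24 h harvest. The GI values below are therefore a description and carry no test.

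GI is a large, mainly nuclear protein of the circadian clock and of the photoperiod pathway of flowering. It stabilises the blue light receptor ZEITLUPE, an F-box protein that marks clock proteins for degradation. With the related F-box protein FKF1 it brings about the loss of CYCLING DOF FACTORS, which repress CONSTANS and FLOWERING LOCUS T. In long days its transcript is classed as an afternoon to evening transcript.

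All seedlings were of the natural accession RRS-7 and carried no transgene or mutation that the labels name. They grew in long days at 20 °C until day 5, when plates were moved to 28 °C at ZT7 (7 h after lights on) or stayed at 20 °C. Seedlings were dissected into cotyledon, hypocotyl and root either 24 h after the shift, at ZT7 of day 6, or 3 h after it, at ZT10 of day 5. Each of the 12 combinations of organ, time and temperature had 3 arrays, except the root at 28 °C for 3 h, which had 2. The labels call the samples biological replicates, each pooled from seedlings of several harvest sessions. Harvest hour, seedling day and, at 28 °C, time in the warmth all differ between the 24 h and the 3 h arrays and cannot be told apart.

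The 35 arrays had median log2 signals of 5.65 to 5.93, and arrays of 1 group correlated with each other at r = 0.992 to 0.997 across genes. GI varied little between arrays of 1 group, with a residual SD of 0.064 log2 units, against a median of 0.130 over all genes tested. The organ labels could be checked with few defining genes, since 1 of 12 green tissue markers and 2 of 17 root markers were among the genes tested, and no hypocotyl marker was on the list. LHCB4.2, a light-harvesting antenna protein, ranged over 11.3 to 12.8 log2 units in cotyledons, 9.84 to 11.3 in hypocotyls and 4.61 to 5.92 in roots. EXPA7, a root hair expansin, ranged over 4.39 to 4.98 in cotyledons, 4.22 to 5.05 in hypocotyls and 7.67 to 8.74 in roots. PYK10, a beta-glucosidase abundant in roots, ranged over 11.4 to 12.1 in cotyledons, 12.4 to 12.9 in hypocotyls and 13.2 to 13.7 in roots. These 3 genes followed the organ labels.

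In cotyledons harvested 24 h after the shift, GI was at its lowest of the 12 groups in the warm seedlings. The 28 °C arrays read 7.32, 7.40 and 7.39 log2 units, against 8.66, 8.60 and 8.64 in the 20 °C arrays. Every warm array lay more than 1 log2 unit below every control array. The group means were 7.37 ± 0.045 at 28 °C and 8.64 ± 0.030 at 20 °C (SD, n = 3 each), and the fitted difference was -1.27 ± 0.069 log2 units (SE). On the linear scale GI was thus 2.41-fold lower at 28 °C, which placed it 83rd from the lowest of the 13355 differences in this comparison. The green marker LHCB4.2 averaged 12.7 ± 0.090 at 28 °C and 12.6 ± 0.067 at 20 °C in these cotyledons, and the root marker EXPA7 4.56 ± 0.15 at 28 °C and 4.81 ± 0.15 at 20 °C (SD, n = 3 each). In RNA from a whole organ, fewer cells of a type and less RNA per cell cannot be told apart, and neither marker's part in the GI difference was tested.

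In cotyledons harvested 3 h after the shift, the difference ran the other way. The 28 °C arrays read 8.76, 8.78 and 8.73, against 8.48, 8.40 and 8.39 in the 20 °C arrays. The lowest warm array stood above the highest control array, and the warm group held the highest mean of all 12 groups. The means were 8.76 ± 0.026 at 28 °C and 8.42 ± 0.050 at 20 °C (SD, n = 3 each), a difference of 0.33 ± 0.069 log2 units (SE) or 1.26-fold. LHCB4.2 was also higher in the same warm cotyledons, at 12.4 ± 0.10 against 11.4 ± 0.16 in the controls (SD, n = 3 each), and its part in the GI difference was not tested. GI's highest and lowest group means in the series were thus both in warm cotyledons, 1.39 log2 units apart.

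Hypocotyls, the embryonic stem, showed the same pair of opposite differences at a smaller size. At 24 h the 28 °C arrays read 7.92, 7.90 and 7.81, against 8.29, 8.34 and 8.34 in the 20 °C arrays. The groups did not overlap, and the means of 7.88 ± 0.060 at 28 °C and 8.32 ± 0.029 at 20 °C (SD, n = 3 each) differed by -0.44 ± 0.069 log2 units (SE), 1.36-fold lower in the warmth. This was the 283rd lowest of the 13355 differences in warm hypocotyls at 24 h. LHCB4.2 averaged 11.2 ± 0.090 at 28 °C and 10.8 ± 0.091 at 20 °C there (SD, n = 3 each), and its part in the GI difference was not tested.

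At 3 h the 28 °C hypocotyl arrays read 8.43, 8.11 and 8.29, against 7.99, 8.03 and 8.04 in the 20 °C arrays. All 3 warm arrays stood above the controls, with replicate 2 only just above them. The warm group had the widest spread of GI in the series, with a mean of 8.28 ± 0.16 at 28 °C against 8.02 ± 0.029 at 20 °C (SD, n = 3 each). The difference was 0.26 ± 0.069 log2 units (SE), or 1.19-fold. It was 0.18 without replicate 1 and 0.34 without replicate 2 of the warm group. As for every GI difference, the SE came from 1 spread fitted over all 35 arrays. That SE is not a measure of this warm group's own, wider spread. LHCB4.2 averaged 11.01 ± 0.096 at 28 °C and 9.98 ± 0.17 at 20 °C in these hypocotyls (SD, n = 3 each), and its part in the GI difference was not tested.

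Roots had the smallest differences of GI with temperature. At 24 h the 28 °C arrays read 8.23, 8.20 and 8.23, against 8.37, 8.41 and 8.43 in the 20 °C arrays. The groups did not overlap, and the means of 8.22 ± 0.017 at 28 °C and 8.40 ± 0.032 at 20 °C (SD, n = 3 each) differed by -0.19 ± 0.069 log2 units (SE). With each array centred on 4 reference genes the same difference was -0.034 log2 units, under a median of 0.15 over all genes, so its size depended on how arrays were scaled. Both root markers were higher in these warm roots, EXPA7 at 8.52 ± 0.20 against 8.05 ± 0.11 at 20 °C and PYK10 at 13.6 ± 0.037 against 13.2 ± 0.044 (SD, n = 3 each), and their part in the GI difference was not tested.

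At 3 h the 28 °C root arrays read 8.56 and 8.49, against 8.34, 8.42 and 8.52 in the 20 °C arrays. One control array lay between the warm arrays, and this was the single comparison of temperatures in which GI's groups overlapped. The means were 8.53 ± 0.048 at 28 °C (SD, n = 2) and 8.43 ± 0.087 at 20 °C (SD, n = 3), and the difference was 0.10 ± 0.077 log2 units (SE), or 1.07-fold. It was 0.066 without replicate 1 of the warm roots, 0.058 without replicate 1 of the control roots, and 0.19 with arrays centred on reference genes. EXPA7 averaged 8.41 ± 0.14 at 28 °C (SD, n = 2) and 7.83 ± 0.16 at 20 °C (SD, n = 3), PYK10 13.2 ± 0.078 at 28 °C and 13.3 ± 0.13 at 20 °C, and their part in the GI difference was not tested.

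**Figure D1:**
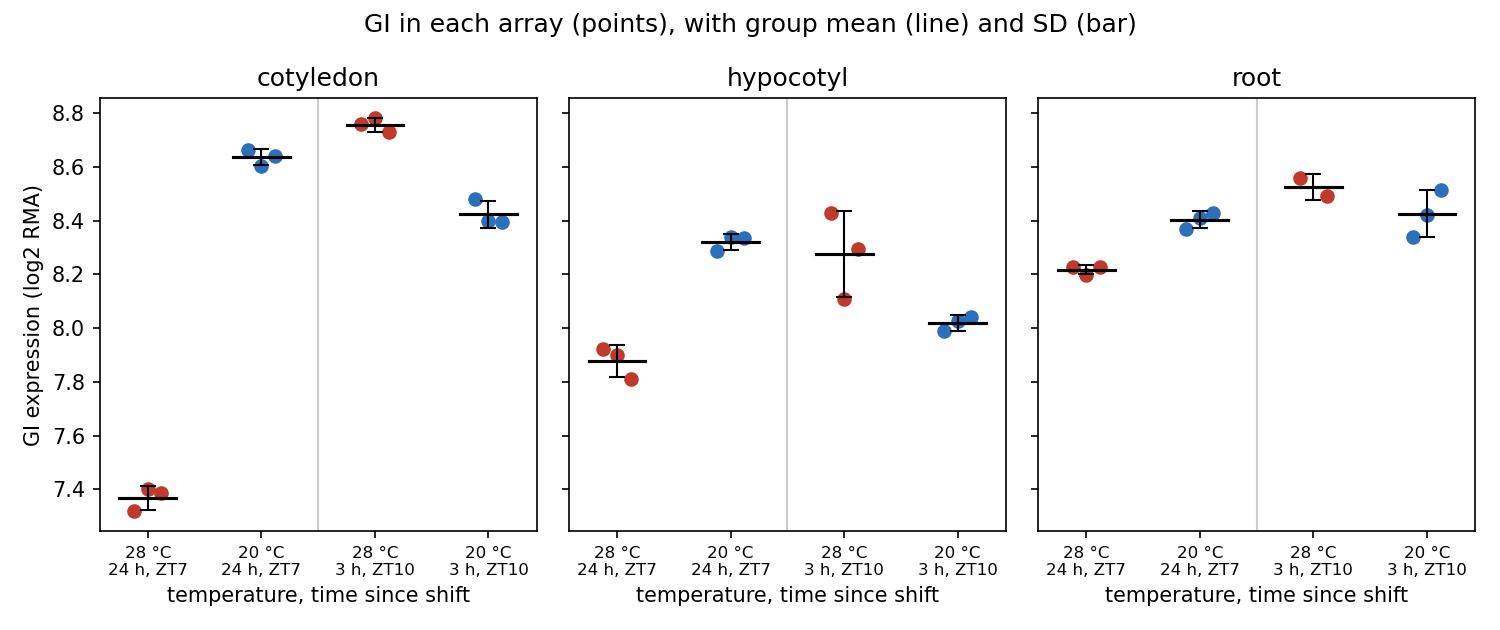
GI expression on the log2 RMA scale (y axis) in each array, by organ, time since the shift and temperature; red points are 28 °C arrays, blue points 20 °C arrays, the line is the group mean and the bar the SD. Warm cotyledons hold both the lowest group at 24 h (7.37) and the highest at 3 h (8.76), and the root groups at 3 h overlap.

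The sign of the estimate was therefore negative at 24 h and positive at 3 h in all 3 organs. The temperature difference at 24 h minus that at 3 h was -1.60 ± 0.098 log2 units in cotyledons, -0.70 ± 0.098 in hypocotyls and -0.29 ± 0.10 in roots (SE). In cotyledons it ranked 28th from the lowest of 13355 genes, in hypocotyls 81st and in roots 1269th. The temperature differences at 3 h were less extreme, 1145th from the highest in cotyledons, 1422nd in hypocotyls and 3581st in roots. The root difference at 24 h was 2332nd from the lowest. Estimates lower at 24 h and higher at 3 h in all 3 organs were found for 286 genes, 2.14% of those tested, and GI was one of them.

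The organs differed in the size of the 24 h difference more than in that of the 3 h difference. At 24 h the temperature difference in cotyledons was -0.83 ± 0.098 log2 units relative to that in hypocotyls and -1.08 ± 0.098 relative to that in roots (SE). That in hypocotyls was -0.26 ± 0.098 relative to that in roots. At 3 h the corresponding values were 0.08 ± 0.098 for cotyledons relative to hypocotyls, 0.23 ± 0.10 for cotyledons relative to roots and 0.16 ± 0.10 for hypocotyls relative to roots (SE).

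**Figure D2:**
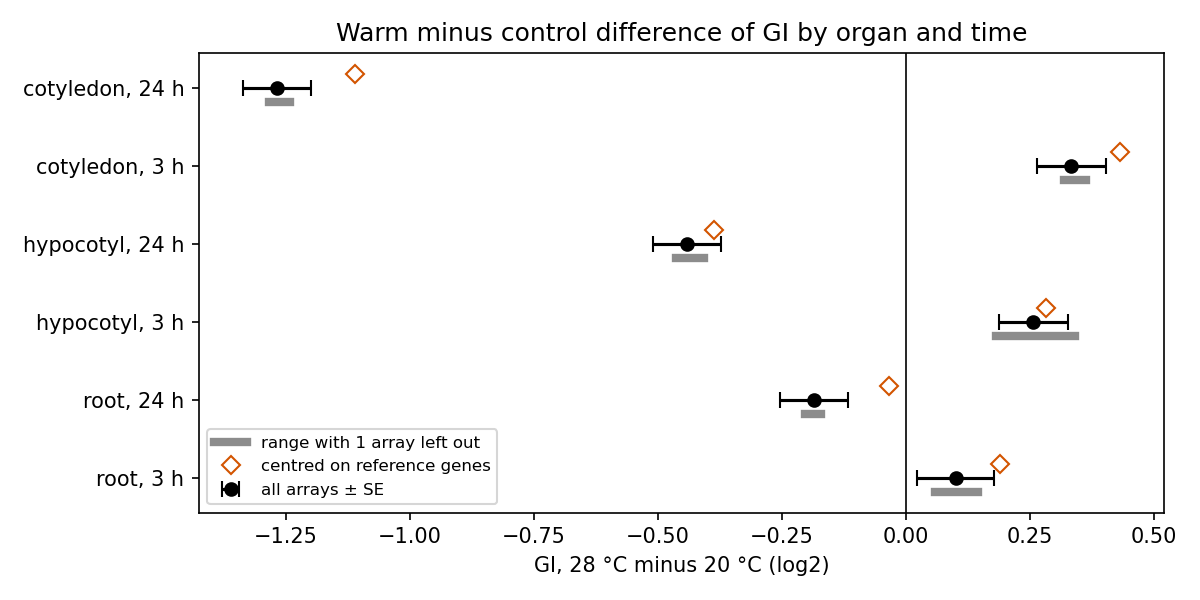
GI at 28 °C minus GI at 20 °C in log2 units (x axis) for each organ and time (y axis), with black points and bars for the fitted difference ± SE over all arrays, grey bars for the range when 1 array is left out, and open diamonds for arrays centred on 4 reference genes. The 24 h differences lie left of 0, from -1.27 in cotyledons to -0.19 in roots, and the 3 h differences lie right of it, from 0.10 in roots to 0.33 in cotyledons.

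Among seedlings kept at 20 °C, GI differed with harvest in cotyledons by less than it did at 28 °C. In hypocotyls the sizes were closer, with the 28 °C difference at -0.40 ± 0.069 log2 units (SE). In cotyledons the ZT7 harvest of day 6 was 0.21 ± 0.069 log2 units (SE) above the ZT10 harvest of day 5, and in hypocotyls 0.30 ± 0.069 above it, with no overlap of arrays in either organ. LHCB4.2 was also higher at ZT7, at 12.6 ± 0.067 against 11.4 ± 0.16 at ZT10 in cotyledons and 10.8 ± 0.091 against 9.98 ± 0.17 in hypocotyls (SD, n = 3 each), and its part in the GI difference was not tested. In roots the difference was -0.02 ± 0.069 and the arrays of the harvests overlapped.

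At 28 °C the sign was negative in every organ. The ZT7 harvest, 24 h into the warmth, was lower than the ZT10 harvest, 3 h into it, by a difference of -1.39 ± 0.069 log2 units in cotyledons, -0.40 ± 0.069 in hypocotyls and -0.31 ± 0.077 in roots (SE). No arrays of these harvests overlapped in any of the 3 organs. For these and the other comparisons of GI, the share of all genes without overlap was not counted. The cotyledon difference was the 58th lowest of 13355, that in hypocotyls the 224th and that in roots the 688th. With harvests at ZT7 and ZT10 alone, neither the phase nor the amplitude of a daily cycle can be read from these arrays.

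The order of organs by GI level changed with the condition. At 28 °C and 24 h cotyledons were lowest, hypocotyls next and roots highest, with no overlap between neighbours. At 28 °C and 3 h cotyledons were highest, roots next and hypocotyls lowest, again with no overlap.

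At 20 °C and 24 h cotyledons exceeded hypocotyls by 0.32 ± 0.069 log2 units and roots by 0.23 ± 0.069 (SE), while hypocotyls minus roots was -0.08 ± 0.069. At 20 °C and 3 h cotyledons exceeded hypocotyls by 0.40 ± 0.069 and hypocotyls minus roots was -0.41 ± 0.069 (SE). Cotyledons and roots at 20 °C and 3 h overlapped, with a difference of 0.00 log2 units to 2 decimals.

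Over all 12 groups, the lowest GI means were those of warm cotyledons at 24 h, warm hypocotyls at 24 h and control hypocotyls at 3 h, each separated from the next by a gap between arrays. Warm roots at 24 h, warm hypocotyls at 3 h and control hypocotyls at 24 h came next, and each overlapped its neighbour within this trio. Control roots at 24 h, control cotyledons at 3 h, control roots at 3 h and warm roots at 3 h followed, and neighbours in this run overlapped as well. Control cotyledons at 24 h and warm cotyledons at 3 h stood above all others, apart from each other by 0.12 log2 units.

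The other genes of the clock and of the light and flowering pathways give the setting for these values. Their lists were chosen with earlier results of these data known. Counts of listed genes set beside the share of all genes are therefore a description. Of 91 genes on 8 lists, 11 were among the genes tested here: 7 of 44 on the 5 lists of clock and clock-associated genes, and 4 on the flowering and light lists. The 7 were AT5G52660 (listed as RVE6, a MYB-like clock activator), SPY (an O-fucosyltransferase that binds GI), FIO1, XCT and TIC (which affect the period or amplitude of the clock), COR27, and AT4G33980 (listed as COR28). COR27 and COR28 are cold-induced nuclear proteins that act on clock gene expression. The other 4 were AT1G69570 (listed as CDF5, a CYCLING DOF FACTOR), SMZ and SNZ (AP2-type repressors of flowering) and HYH (a bZIP factor of light signalling). The 5 pseudo-response regulators, the 8 evening complex genes, the 10 clock output genes and GI's F-box partners were not analysed here.

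In the comparison of 28 °C with 20 °C in cotyledons at 24 h, where GI was lowest, 5 of the 11 passed limma's moderated test at an adjusted p of 0.05, 2 of them higher and 3 lower in the warmth. The background was high, since 28.5% of all genes passed in that comparison. In cotyledons at 3 h 6 of 11 passed, 3 in each direction, against 22.4% of all genes. In hypocotyls at 24 h 4 of 11 passed, 2 in each direction, against 9.67% of all genes, and at 3 h 4 of 11, also 2 in each direction, against 14.6%. In roots at 24 h 2 of 11 passed, 1 in each direction, against 17.7%, and at 3 h 5 of 11, 1 higher and 4 lower, against 10.7%. Without replicate 2 of the warm roots at 3 h the count there was 2 of 11, and 731 genes passed in all, against 1434 with it. In hypocotyls at 24 h the count was 2 of 11 without warm replicate 2 or without warm replicate 3. The median difference of the 11 genes lay between -0.20 and 0.10 log2 units in these 6 comparisons, and that of all genes between -0.02 and 0.03. Centring on reference genes moved the split in cotyledons to 4 higher and 2 lower at both harvests.

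COR27 differed from GI in the sign of its 3 h difference. Its 24 h levels were dim. In cotyledons at 24 h COR27 averaged 3.28 ± 0.12 log2 units at 28 °C and 4.47 ± 0.061 at 20 °C (SD, n = 3 each), a difference of -1.19 ± 0.11 (SE, limma adjusted p = 6.48e-10). In cotyledons at 3 h it averaged 7.13 ± 0.089 at 28 °C and 8.89 ± 0.11 at 20 °C, and fell as well, by a difference of -1.76 ± 0.11 (limma adjusted p = 2.58e-13). It also fell in warm hypocotyls, with -0.71 ± 0.11 at 24 h (limma adjusted p = 7.24e-05) and -1.55 ± 0.11 at 3 h (limma adjusted p = 5.8e-11). In roots it fell at 3 h, by a difference of -1.16 ± 0.13 (limma adjusted p = 5.72e-08), and was at -0.03 ± 0.11 at 24 h (limma adjusted p = 0.925). Its warm root mean at 3 h was dim as well, at 4.21 against 5.37 at 20 °C.

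COR28 fell in warm cotyledons at both harvests, with differences of -1.57 ± 0.20 log2 units at 24 h (limma adjusted p = 1.37e-07) and -1.96 ± 0.20 at 3 h (limma adjusted p = 2.85e-09). It fell in hypocotyls at 3 h, by -0.98 ± 0.20 (limma adjusted p = 0.000623). Its hypocotyl difference at 24 h, -0.60 ± 0.20, passed narrowly (limma adjusted p = 0.0499) and lost its call in 8 of 14 recomputations. COR28's group means at 24 h were all dim, below 5 log2 units. In cotyledons they were 3.41 at 28 °C and 4.99 at 20 °C. In hypocotyls they were 3.80 at 28 °C and 4.39 at 20 °C, and in roots 4.85 at 28 °C and 4.67 at 20 °C. The part of such low signals in COR28's 24 h differences was not tested. Its root difference at 3 h, -0.81 ± 0.22 (limma adjusted p = 0.0125), lost its call without replicate 2 of the warm roots (-0.54, limma adjusted p = 0.32) and without replicate 1 of the control roots (-0.68, limma adjusted p = 0.0692).

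CDF5 encodes a repressor of the family that the GI and FKF1 pair removes, and in cotyledons and hypocotyls its transcript moved opposite to that of COR27. It rose in warm cotyledons by 0.58 ± 0.10 log2 units at 24 h (limma adjusted p = 3.02e-05) and 0.83 ± 0.10 at 3 h (limma adjusted p = 1.02e-07). It rose in warm hypocotyls by 0.50 ± 0.10 at 24 h (limma adjusted p = 0.00119) and 0.51 ± 0.10 at 3 h (limma adjusted p = 0.000583). In roots its differences were -0.06 ± 0.10 at 24 h and -0.20 ± 0.11 at 3 h, and neither passed. Its root means were dim or nearly so, from 4.87 to 5.07 log2 units. CDF5 transcript thus rose at both shoot harvests, while GI's estimates there had opposite signs. The CDF5 protein, on which the GI and FKF1 pair acts, was not measured.

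Of the remaining 8 genes, TIC passed in none of the 6 temperature comparisons, with estimates between -0.08 and 0.18 log2 units. SPY rose by 0.35 ± 0.097 in warm cotyledons at 24 h and 0.37 ± 0.097 in warm hypocotyls at 3 h. RVE6 rose by 0.46 ± 0.098 in warm cotyledons at 3 h, and XCT by 0.27 ± 0.087 there, by 0.29 ± 0.087 in warm roots at 24 h and by 0.32 ± 0.097 at 3 h. FIO1 differed by -0.54 ± 0.12 in warm roots at 24 h and -0.35 ± 0.12 in warm cotyledons at 3 h. SMZ differed by -0.37 ± 0.11 in warm cotyledons at 24 h and -0.53 ± 0.12 in warm roots at 3 h, SNZ by 0.37 ± 0.11 in warm hypocotyls at 24 h, and HYH by -0.82 ± 0.14 in warm roots at 3 h. Several of these calls were weak. The cotyledon call for FIO1 was lost in 7 of 14 recomputations and was at -0.19 without control replicate 2 (limma adjusted p = 0.34). The SNZ call and the cotyledon call for XCT were each lost in 4 of 14, the XCT calls in roots in 3 of 14 at 24 h and 4 of 13 at 3 h, and the SMZ calls in 3 of 14 in cotyledons and 1 of 13 in roots.

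The harvest comparison at 20 °C set 8 of the 11 past the test in cotyledons, 4 in each direction, against 17.6% of all genes. In hypocotyls 3 of 11 passed, 1 higher and 2 lower at ZT7, against 1.94% of all genes, and in roots 2 of 11, both lower, against 0.419%. The members that passed in hypocotyls were COR27, COR28 and HYH, and those in roots COR27 and COR28. COR27 was lower at ZT7 than at ZT10 by differences of -4.43 ± 0.11 log2 units in cotyledons, -2.98 ± 0.11 in hypocotyls and -1.81 ± 0.11 in roots, and COR28 by -3.48 ± 0.20 in cotyledons, -2.09 ± 0.20 in hypocotyls and -1.45 ± 0.20 in roots. The ZT7 means of COR27 and COR28 at 20 °C were dim in every organ, below 5 log2 units. The part of such low signals in their harvest differences was not tested. HYH was higher at ZT7 by 1.61 ± 0.12 in cotyledons and 0.90 ± 0.12 in hypocotyls. In cotyledons RVE6 was higher at ZT7 by 0.57 ± 0.098, SNZ by 0.64 ± 0.11 and CDF5 by 0.38 ± 0.10, while SMZ at -0.31 ± 0.11 and TIC at -0.23 ± 0.081 were lower, and both of the last calls were lost in several recomputations. GI's own harvest differences at 20 °C, 0.21 in cotyledons and 0.30 in hypocotyls, were smaller than those of COR27, COR28 and HYH in the same organs.

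**Figure D3:**
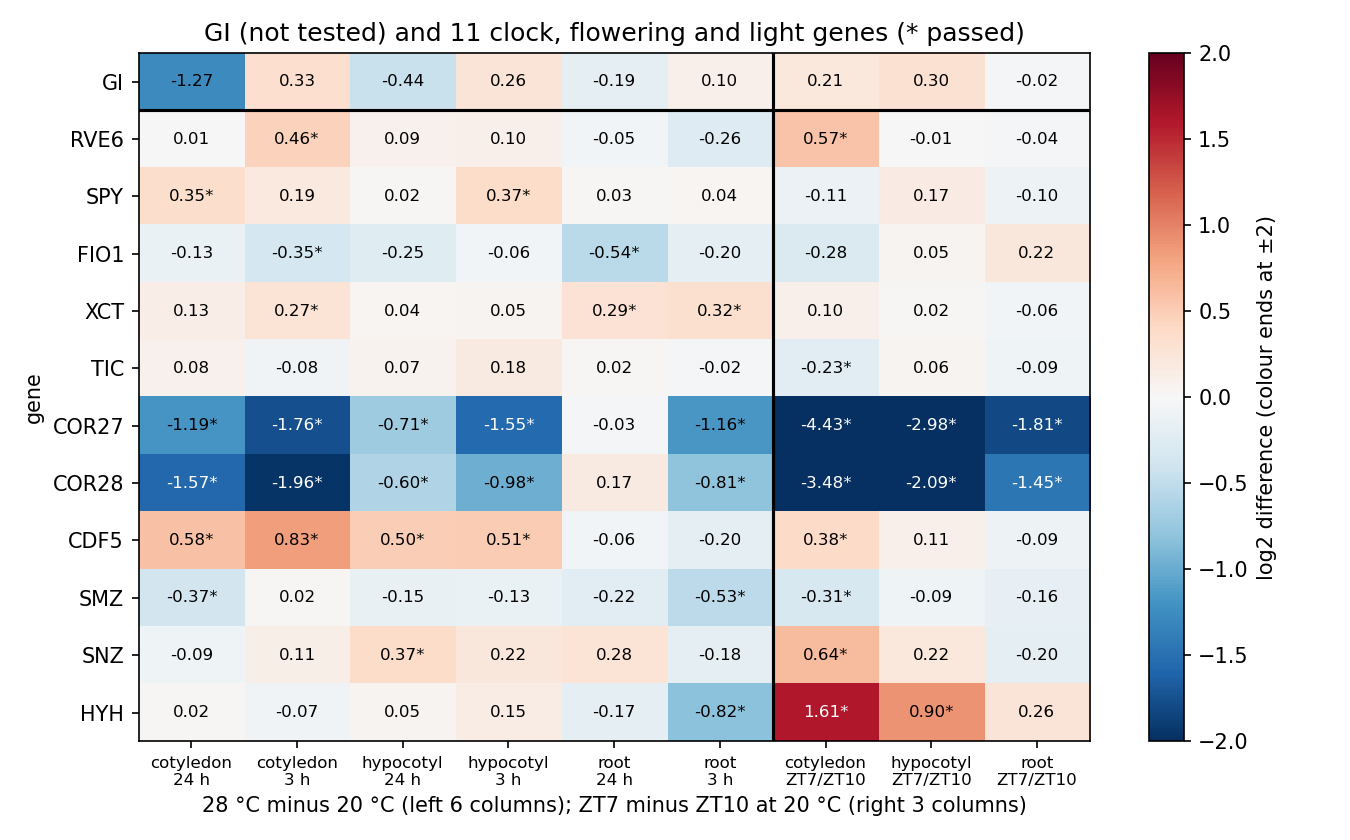
Fitted log2 differences (colour and printed value) of GI and the 11 tested clock, flowering and light genes (rows) in the 6 temperature comparisons and the 3 harvest comparisons at 20 °C (columns); RVE6, COR28 and CDF5 are list names, and an asterisk marks an adjusted p of 0.05 or less, which was not computed for GI. COR27 and COR28 are lower at 28 °C in cotyledons and hypocotyls at both harvests, while GI changes sign between 24 h and 3 h. The 24 h group means of COR27 and COR28 are dim, below 5 log2 units, as is the COR27 mean in warm roots at 3 h.

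Whether the temperature difference itself changed between harvests was tested for the 11 genes. In cotyledons 2 of 11 passed, 1 in each direction, against 16.4% of all genes, which is near that background. RVE6 had a difference of -0.45 ± 0.14 log2 units between its 24 h and 3 h responses (limma adjusted p = 0.0212), and COR27 one of 0.58 ± 0.16 (limma adjusted p = 0.01). The RVE6 call was lost with arrays centred on reference genes (-0.39, limma adjusted p = 0.0793), without control replicate 2 at 24 h (limma adjusted p = 0.0642) and without warm replicate 1 at 24 h (limma adjusted p = 0.0712). In hypocotyls COR27 alone of the 11 passed, at 0.85 ± 0.16 (limma adjusted p = 0.0104), against 0.659% of all genes. In roots COR27 at 1.13 ± 0.17 (limma adjusted p = 8.11e-05) and HYH at 0.65 ± 0.18 (limma adjusted p = 0.042) passed, 2 of 11 against 3.35% of all genes, and the HYH call was lost in 11 of 19 recomputations. Positive values here mean that the 24 h response was less negative than the 3 h response. COR27's group means at 24 h were all dim, below 5 log2 units, at 3.28 at 28 °C and 4.47 at 20 °C in cotyledons, 3.87 at 28 °C and 4.58 at 20 °C in hypocotyls, and 3.53 at 28 °C and 3.56 at 20 °C in roots. The COR27 mean in warm roots at 3 h, 4.21, was dim too. No detection call was used here, and the part of such low signals in COR27's differences was not tested.

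The genes whose pattern was most like GI were found from Pearson's r over the 12 group means, among 5858 genes whose means spanned at least 1 log2 unit. These points share arrays, scaling and the low GI group of warm cotyledons at 24 h, so r is a description. The closest was AT5G19120 with r = 0.88, followed by AT3G47160 with 0.83, AT1G70420 with 0.82 and AT4G30660 with 0.79. AT1G19370 had 0.78, AT2G37580 had 0.77, and AT5G18130 and AT5G05890 had 0.76 each. No gene exceeded 0.9. Without the group of warm cotyledons at 24 h, r over the other 11 means was 0.81 for AT5G19120, 0.80 for AT5G18130 and 0.77 for AT1G70420, and between 0.51 and 0.67 for the other 5. Among the listed clock genes COR28 had r = 0.53 and COR27 0.34.

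AT5G19120 shared GI's opposite signs in cotyledons, with a temperature difference of -1.36 ± 0.18 log2 units at 24 h and 0.90 ± 0.18 at 3 h (SE). AT3G47160 had -1.31 ± 0.094 at 24 h and 0.37 ± 0.094 at 3 h in the same organ. AT1G70420 had -2.13 ± 0.13 at 24 h but also a negative value at 3 h, -0.37 ± 0.13. Cotyledon values at 3 h were also negative for AT4G30660 (-0.97 ± 0.10), AT5G05890 (-0.54 ± 0.12) and AT1G19370 (-0.49 ± 0.087). AT2G37580 (-0.27 ± 0.13) and AT5G18130 (0.08 ± 0.14) did not pass there. The genes most like GI thus did not all share its change of sign in cotyledons. AT3G47160 departed from GI in roots at 24 h, where its estimate was 0.29 ± 0.094 against GI's -0.19 ± 0.069. In warm cotyledons at 24 h the means of AT5G19120 (4.86) and AT1G70420 (4.84) were dim, below 5 log2 units. The part of such low signals in their patterns was not tested.

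The pattern most opposite to GI was that of BHLH101, a bHLH transcription factor of the iron deficiency response, with r = -0.88. Its temperature difference in cotyledons was 2.61 ± 0.14 log2 units at 24 h and 0.41 ± 0.14 at 3 h (SE). Its sign thus did not turn between harvests as GI's did. BHLH101 was dim, below 5 log2 units, in all groups but warm hypocotyls (5.19) and warm cotyledons (6.34) at 24 h. Its cotyledon means at 3 h were 4.07 at 28 °C and 3.66 at 20 °C. AT4G15430 had r = -0.86, AT3G57570 -0.80 and AT2G07707 -0.79. AT4G15430 was dim in every group but warm cotyledons at 24 h (5.47). AT2G07707 was dim in control cotyledons (4.93 at 3 h, 4.94 at 24 h), control roots (4.71 at 3 h, 4.64 at 24 h) and warm roots at 3 h (4.98). The part of such low signals in these patterns was not tested. Without warm cotyledons at 24 h, r was -0.69 for BHLH101, -0.75 for AT3G57570 and -0.61 each for AT4G15430 and AT2G07707, and BHLH101 was no longer the most opposite gene.

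**Figure D4:**
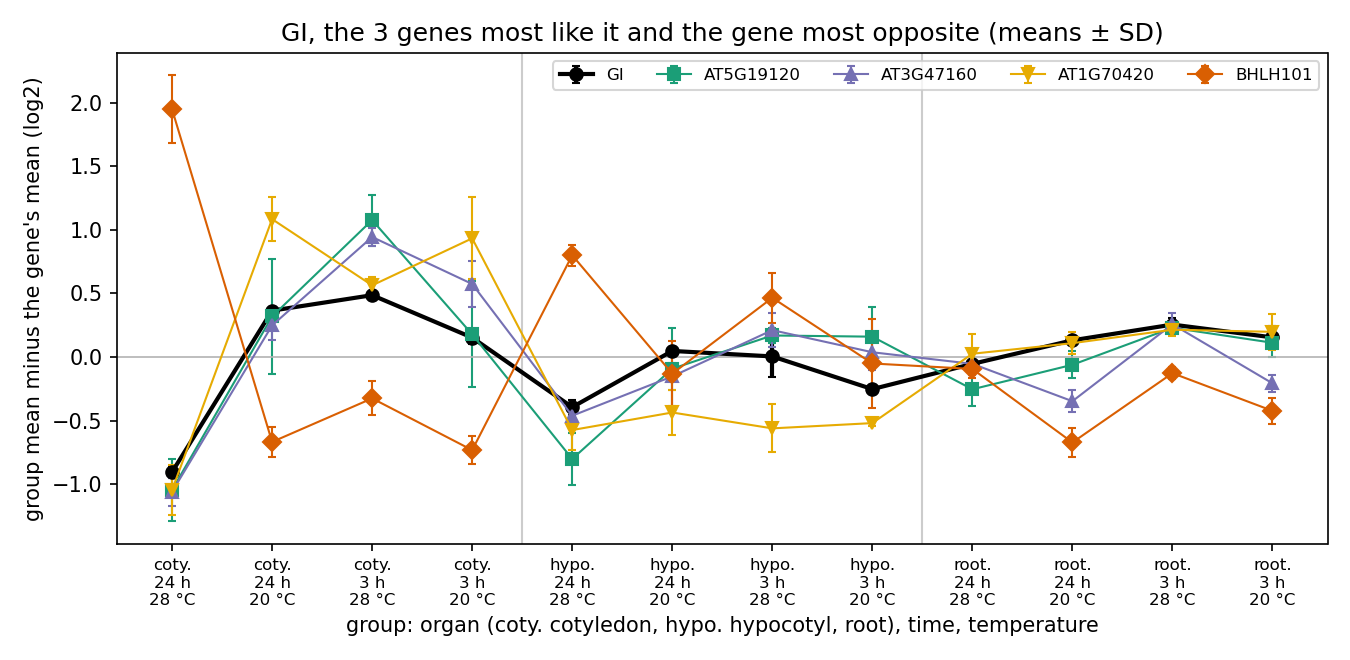
Group means ± SD of GI, the 3 genes with the highest r and the gene with the lowest r over the 12 groups, each minus the gene's own mean over groups, in log2 units (y axis), by organ, time and temperature (x axis). The warm cotyledon group at 24 h lies lowest for GI (7.37 as a level) and AT5G19120, AT3G47160 and AT1G70420, and highest for BHLH101. In that group AT5G19120 (4.86) and AT1G70420 (4.84) are dim, below 5 log2 units, and BHLH101 is dim in most other groups.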

How the data were processed

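RNA from 35 seedling organ samples was hybridised to Affymetrix arrays. The authors deposited 1 table of log2 expression values for 22746 probe sets; RMA and limma are named, without versions, in the submitters' processing notes, and RMA summarises probes after background correction and quantile normalisation, which makes arrays alike in distribution. The deposited log2 values, 2.20 to 14.3, were used unchanged. The genome build and annotation are not given in the sources used here. Of the probe sets, 13513 named 1 gene, 503 several and 8730 none in the platform annotation. Where a gene had several, the probe set with the highest mean was kept, which left 13355 genes. RefSeq (TAIR10.1) was used for names only and matched 13285 of them.

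Under R 4.3.3, limma 3.58.1 fitted 1 mean per group over all 35 arrays and all genes, followed by eBayes. Adjustment was by Benjamini-Hochberg over all genes tested at a threshold of 0.05, and the fit was tested on simulated data. GI's contrasts carry no p. Precision is limited by having 2 or 3 arrays a group. The text names GI, the list genes tested, and the 8 genes with the highest and 4 with the lowest r with GI. GI and the lists were chosen with earlier results of these data known. Alternatives covered scaling, dim genes, probe sets, the arrays fitted, the eBayes prior, a replicate block, each array left out and other measures of likeness. No sequence was analysed here.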

Additional observations from a re-analysis of the deposited data

Results flagged for a closer look

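GI's temperature difference at 24 h minus that at 3 h was -1.60 log2 units in cotyledons and -0.70 in hypocotyls, because every warm array lay below the controls at 24 h and above them at 3 h. These differences were not tested, since GI was chosen by them.

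Among the listed genes, the temperature difference itself changed between 24 h and 3 h by limma's test for COR27 in cotyledons (0.58 log2 units, adjusted p = 0.01), hypocotyls (0.85, adjusted p = 0.0104) and roots (1.13, adjusted p = 8.11e-05). All of COR27's 24 h group means, and its mean in warm roots at 3 h (4.21), were below 5 log2 units. The part of such low signals in these values was not tested. The same test was passed by RVE6 in cotyledons (-0.45, adjusted p = 0.0212) and by HYH in roots (0.65, adjusted p = 0.042). The RVE6 call was lost in 3 of 20 recomputations, and the HYH call in 11 of 19.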

How the results depend on the processing

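Of 184 recomputed GI values, 174 kept their sign and moved by less than 1 SD, and 1 turned sign. That was the harvest difference in control roots, which ranged from -0.066 to 0.022 log2 units with 1 array left out and reached 0.022 without replicate 3 of the 3 h controls. Leaving out dim genes, other probe sets, another eBayes prior and fitting the compared groups alone could not move GI's values. GI has 1 probe set, and its group means stay the same under these settings. The 174 therefore include values that were fixed in advance. Centring arrays on 4 reference genes put the median difference of all genes at 0.13 log2 units in cotyledons at 24 h, 0.10 in cotyledons at 3 h, 0.15 in roots at 24 h and 0.09 in roots at 3 h. Under it GI was at -1.11 in cotyledons at 24 h, 0.43 in cotyledons at 3 h, -0.034 in roots at 24 h and 0.19 in roots at 3 h. Centring on array medians gave -1.33 in cotyledons at 24 h. With 1 array left out, GI's difference in hypocotyls at 3 h was 0.18 without warm replicate 1 and 0.34 without warm replicate 2, the ends of its range, and its 24 h minus 3 h value there was -0.62 and -0.78 without the same arrays.

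Of 44 calls among the listed genes, 31 were kept under every alternative, and 66 of 639 recomputed values lost the call, with 0 signs turned. With 1 array left out, the number passing ranged from 2 to 4 in hypocotyls at 24 h, 2 to 5 in roots at 3 h, 1 to 2 in roots at 24 h, and for the 24 h minus 3 h difference 1 to 3 in cotyledons and 1 to 2 in roots. Reference centring left 1 in the cotyledon 24 h minus 3 h difference.

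Same-numbered warm and control replicates of the same organ and time did not deviate together (r = -0.20 to 0.15). Among controls, 7 of 17 warm arrays matched their own number best, so the numbers were not taken to pair samples. Whether same-numbered samples of different organs or harvests deviated together was not checked. A replicate block left GI's difference at -1.27 in cotyledons at 24 h and 0.10 in roots at 3 h. It could not move the cotyledon value, since both groups there hold all 3 replicates. The block left 1 listed gene, COR27, in the 24 h minus 3 h difference in roots.

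Of the 8 genes most like GI, 3 stayed among the top 8 by Spearman's rho, 0 by r after subtracting organ means, and 0 without warm cotyledons at 24 h, a setting chosen after seeing the data. The planned comparison of promoter motif lengths was not run.

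Counts over all genes moved by more than 1.5 times with the 22746 probe sets in place of 13355 genes, a larger set, giving 170 to 7041 calls a comparison against 56 to 3805. With 1 array left out, the lowest counts were 746 of 1291 in hypocotyls at 24 h (without warm replicate 2), 1183 of 1954 in hypocotyls at 3 h (without control replicate 1) and 731 of 1434 in roots at 3 h (without warm replicate 2). They were 137 of 259 and 30 of 56 for harvest in control hypocotyls and roots, and for the 24 h minus 3 h difference 17 of 88 in hypocotyls, which also reached 162, and 192 of 447 in roots. Fitting the compared groups alone gave 31 of 56 for harvest in control roots and 49 of 88 for the 24 h minus 3 h difference in hypocotyls.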
